A study of Homo sapiens with 44 samples.

Results

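The comparison set knockout cells that carry a tagged normal GAS41 against cells that were never edited, to see what still differed from WT once GAS41 was put back. The wt rescue group has 3 libraries of GAS41-KO HCT116 cells that stably express GFP-Flag-tagged normal GAS41. The WT group has 3 libraries of HCT116 cells without the edit. These are 6 of the 44 samples of the series, chosen by their labels, and all 14505 genes with enough reads were compared out of 18797 in the table. GAS41-KO cells, the parents of the rescue cells, are given beside them where a gene's side of WT matters. A rescue with a substituted GAS41 (mut rescue) entered the fit for its spread and is otherwise given only in checks between libraries.

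HCT116 is a human colon cancer line, p53+/+ per the labels, and it was grown in RPMI-1640 with fetal calf serum. The labels name no drug for these libraries. Poly-A RNA was read on a BGISEQ-500. Both groups share the line and the medium, and the wt rescue cells also carry the GAS41 edit, the GFP-Flag tag and whatever came with making a stable line, which the WT cells lack. Those differences cannot be told apart from the return of GAS41 itself. The labels give neither the promoter of the construct nor the number of clones. They call the libraries biological replicates without saying whether they were separate cultures, so p-values here capture the spread among these particular samples, which may be technical.

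GAS41, encoded by YEATS4, is a small nuclear protein with a YEATS domain, a fold that binds histone tails carrying acetyl or crotonyl groups. It belongs to the SRCAP complex, which exchanges histone variants, and to the TIP60 complex, which also acetylates histones. The gene was first found amplified in gliomas, and GAS41 is known to bind MYC and to hold p53 activity down.

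Recovered read totals ran between 18235387 and 18546135 in wt rescue and between 17851483 and 17926812 in WT, so depth was nearly even. Levels below are normalized reads, the reads recovered from the deposited values divided by the size factor of the library. A log2 change is a difference of the deposited variance-stabilized values, on which low levels are compressed, so that 1 log2 above the lowest value stands for 39.1 normalized reads and a log2 change of a low gene is smaller than its fold. Read totals are not corrected for transcript length, so levels are compared between groups and not between genes. The epithelial keratins KRT8, KRT18 and KRT19 were high in both groups. The 11 listed colon epithelial markers in the table summed to 76412 to 89265 normalized reads in wt rescue and 56803 to 60434 in WT. Only 6 of these 11 had enough reads to be tested, and VIL1 was at 0 in all wt rescue libraries. Markers of other cells were low. Fibroblast markers summed to 222 to 236 in wt rescue and 312 to 349 in WT, with COL3A1 at 0 in all wt rescue libraries. Blood and immune markers summed to 327 to 391 in wt rescue and 200.2 to 216 in WT, with PTPRC at 0 in both groups, and endothelial markers to 16.5 to 20.9 and 17.0 to 22.0, with CDH5 at 0 in both.

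One wt rescue library stood apart from the others. Each library was set against the mean of its 2 group mates, and in wt rescue replicate 1 a total of 692 genes were higher by at least 0.5 log2 and 0 were lower, with 69 higher by at least 1 log2. The same count was 0 in each direction for all 3 WT and all 3 GAS41-KO libraries. It was 0 higher and 299 lower for wt rescue replicate 2, and 0 and 11 for replicate 3, each against a mean that included replicate 1. Replicates 2 and 3 of wt rescue were that far apart at 1 gene. In mut rescue the count was 0 for replicate 1, 25 higher and 18 lower for replicate 2, and 11 and 13 for replicate 3. Replicates 2 and 3 of mut rescue were that far apart at 167 genes. Genes at 0 reads numbered 1353 in wt rescue replicate 1, 1607 in replicate 2 and 1595 in replicate 3, and 1028, 995 and 992 in the WT libraries.

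Among the genes with the largest gaps was ZBTB20. ZBTB20, a zinc finger transcription factor, had 2898, 707 and 865 normalized reads in wt rescue replicates 1, 2 and 3 and 3006, 2529 and 2784 in the WT libraries. DST, which encodes the giant cytoskeletal linker dystonin, had 4657, 1413 and 1758 in wt rescue and 6074, 5699 and 5852 in WT. In ZBTB20 wt rescue replicate 1 lies inside the WT range, in DST it lies under it, and in both replicates 2 and 3 lie far lower. VPS13A, PIK3C2A, KIF14, BOD1L1 and NKTR also had replicates 2 and 3 far under replicate 1, and these 7 genes were named for large gaps after their values were seen. The largest gaps in the other direction were small, such as 0.38 log2 for HGSNAT, a lysosomal enzyme with 219, 328 and 316 normalized reads in wt rescue and 267, 298 and 261 in WT. The values without replicate 1, and with it as the only wt rescue library, therefore stand beside many of the results that follow. Where they are not given, a result may still depend on replicate 1. Both sets of values use the same WT libraries, and with 1 library in a group that library is assumed to vary like the others.

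**Figure D1:**
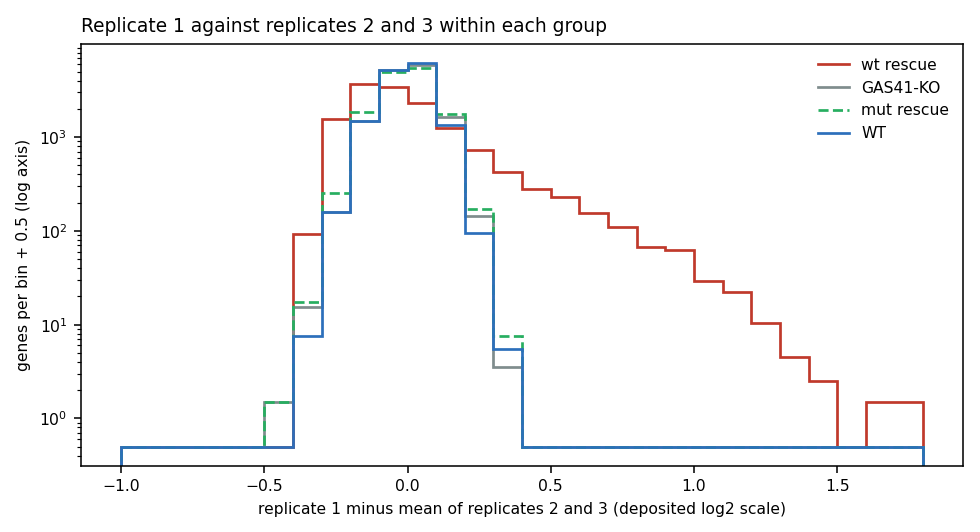
Number of genes (log axis, 0.5 added) by the difference of replicate 1 from the mean of replicates 2 and 3, in bins of 0.1 on the deposited log2 scale, for wt rescue, GAS41-KO, mut rescue and WT. The wt rescue curve has a long right tail, with 692 genes at 0.5 or more, where GAS41-KO, mut rescue and WT have 0.

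YEATS4 RNA was far above the WT level in wt rescue. It had 2887, 3499.6 and 3372 normalized reads in wt rescue replicates 1, 2 and 3, 349 ± 32.3 (mean ± SD of 3 libraries) in GAS41-KO and 625, 608 and 621 in the WT libraries. The groups did not overlap, and wt rescue stood 5.26-fold over WT (log2 change 2.15 ± 0.07 SE, adjusted p = 1.63e-11, limma). GAS41-KO still held YEATS4 RNA at 56.5% of the WT mean. Reads of the construct and of the edited gene cannot be told apart in a count per gene, and the level of RNA says nothing of protein.

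Against WT, 7267 of 14505 genes were called at an adjusted p under 0.05 (50.1%), with 3978 higher (27.4%) and 3289 lower (22.7%). On the deposited scale, which compresses low levels, 14 genes rose by 1 log2 or more (0.0965%) and 79 fell by that much (0.545%), against 91 and 731 with voom and the deposited size factors. The groups did not overlap for 57.3% of genes. Without wt rescue replicate 1 the count was 8428 (58.1%; 32.6% higher and 25.5% lower), with 14 rises and 241 falls of 1 log2 or more. With replicate 1 as the only wt rescue library it was 2328 (16%), with 15 such rises and 19 such falls. After quantile normalization, which gives every library the same distribution of values, 43.1% were called (24.4% higher and 18.7% lower). The same fit called 52.6% in GAS41-KO over the same WT libraries. The number of large rises thus hardly depended on replicate 1, and the number of large falls did. Without wt rescue replicate 2 or 3 the large falls numbered 37 and 51, and without a WT library between 75 and 84.

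The 12 largest rises among protein-coding genes with at least 50 normalized reads began with YEATS4 and BMP4. BMP4, a secreted growth factor, had 3831, 4558 and 4467 normalized reads in wt rescue, 13621 ± 240.1 in GAS41-KO and 874, 861 and 861 in WT. All 3 wt rescue libraries lay far above WT and far below GAS41-KO (4.95-fold over WT, log2 change 2.12 ± 0.07 SE, adjusted p = 1.63e-11). TNFSF4, the T cell costimulatory ligand OX40L, had 394, 420.4 and 384 in wt rescue, 1205 ± 25 in GAS41-KO and 15.3, 17 and 32.3 in WT. It stood 18.6-fold over WT (log2 change 2.06 ± 0.07 SE, adjusted p = 1.63e-11) and, like BMP4, between WT and GAS41-KO. ZBED2, a transcription factor with a BED zinc finger, had 423, 532 and 506 in wt rescue, 2346 ± 69.1 in GAS41-KO and 54.4, 51 and 60.7 in WT, 8.79-fold over WT (log2 change 1.83 ± 0.07 SE, adjusted p = 3.18e-11). The same order held for PLK2, a stress-induced kinase and p53 target, with 1244, 1341 and 1350.1 in wt rescue, 4129 ± 75.4 in GAS41-KO and 518, 516 and 530.3 in WT (log2 change 1.13 ± 0.06 SE, adjusted p = 2.15e-09). HTR7, a serotonin receptor, had 1017, 1322 and 1267 in wt rescue, 1416 ± 50.3 in GAS41-KO and 435, 374 and 451 in WT, so its wt rescue level was 2.86 times that of WT and close to GAS41-KO (log2 change 1.25 ± 0.08 SE, adjusted p = 2.59e-08).

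Other large rises went past the level in GAS41-KO. NEUROD1, a transcription factor of neuronal and endocrine cells, had 258, 196 and 189.9 normalized reads in wt rescue, 64.1 ± 6.81 in GAS41-KO and 1.91, 0.944 and 2.85 in WT (log2 change 1.95 ± 0.08 SE, adjusted p = 1.02e-10). All 3 wt rescue libraries carried it at a moderate level where WT was near 0, and no fold is given over so few WT reads. CPA4, a secreted carboxypeptidase, had 1587, 1742 and 1639 in wt rescue, 740.4 ± 60.2 in GAS41-KO and 467, 416 and 416 in WT (3.82-fold, log2 change 1.64 ± 0.07 SE, adjusted p = 1.05e-10). KRT80, an epithelial keratin, had 501, 560.1 and 523 in wt rescue, against 94.7 ± 9.19 in GAS41-KO and 102, 103 and 86.3 in WT. It stood 5.44-fold over WT (log2 change 1.58 ± 0.07 SE, adjusted p = 7.67e-10), and GAS41-KO did not differ from WT past the threshold (adjusted p = 0.857). EMP1, an epithelial membrane protein, had 1749, 2256 and 2124 in wt rescue, 884 ± 30.9 in GAS41-KO and 806, 726 and 779.9 in WT (2.65-fold, adjusted p = 1.6e-08). THBS1, the matrix protein thrombospondin, averaged 1125 ± 112 in wt rescue, 453 ± 54.7 in GAS41-KO and 423 ± 27.9 in WT (2.66-fold, adjusted p = 5.36e-08). In both, GAS41-KO missed the threshold over WT (adjusted p = 0.0728 for EMP1 and 0.473 for THBS1). KRTAP2-3, a hair keratin-associated gene with close copies that could share its reads, had 183, 256 and 216 in wt rescue and 42, 36.8 and 35.1 in WT (log2 change 1.2 ± 0.07 SE, adjusted p = 1.13e-08). With replicate 1 as the only wt rescue library each of these 12 rises was still called, and their log2 changes ran from 1.02 for THBS1 to 2.13 for NEUROD1.

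**Figure D2:**
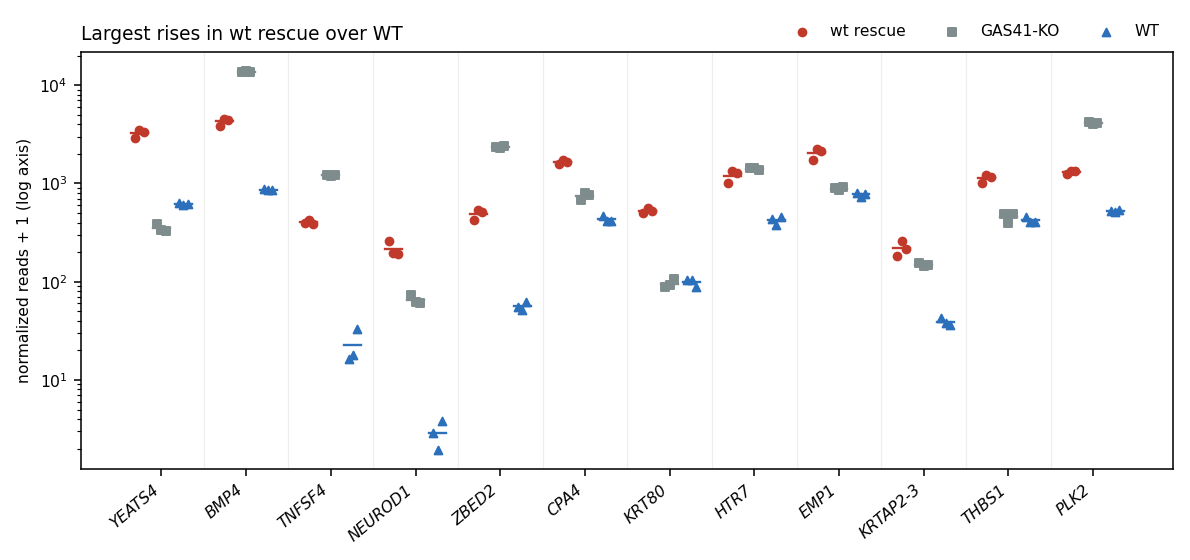
Normalized reads plus 1 (log axis) of the 12 largest rises in each library of wt rescue, GAS41-KO and WT, with a bar at each group mean. BMP4, TNFSF4, ZBED2 and PLK2 lie between WT and GAS41-KO in wt rescue, while the KRT80, EMP1 and THBS1 points of wt rescue lie above those of both other groups.

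Among the 12 largest falls, 6 had log2 changes between -1.79 and -1.32 with replicate 1 as the only wt rescue library and the other 6 between -1.03 and -0.33, a division made after the values were seen. In the first 6, RGS2 and HMGN5 were also deeper without replicate 1, at -1.79 and -1.72. DPYSL3, which encodes a cytoskeletal protein of growing axons, had 182, 218 and 198 normalized reads in wt rescue, 172 ± 9.79 in GAS41-KO and 933, 910.4 and 1016 in WT (log2 change -1.71 ± 0.07 SE, adjusted p = 1.05e-10). DSC3, the desmosomal cadherin desmocollin, had 49.8, 48 and 36.1 in wt rescue, 14 ± 3.67 in GAS41-KO and 394, 331 and 336 in WT (log2 change -1.60 ± 0.08 SE, adjusted p = 2.36e-09). NFIB, a transcription factor, had 325, 333 and 341 in wt rescue, 202 ± 10.1 in GAS41-KO and 1206, 1045 and 1014 in WT (log2 change -1.38 ± 0.08 SE, adjusted p = 1.84e-08). In each of these genes the 3 wt rescue libraries lay far under WT, on the side of GAS41-KO. LRP1B, a very large endocytic receptor, was at 1.99, 1.04 and 0 normalized reads in wt rescue, 27.9 ± 1.96 in GAS41-KO and 95.5, 98.2 and 104 in WT (log2 change -1.42 ± 0.07 SE, adjusted p = 9.67e-10), and no fold is given over so few reads. RGS2, which damps G protein signalling, had 257, 141 and 200.2 in wt rescue, 311 ± 18.6 in GAS41-KO and 954, 846 and 923 in WT (log2 change -1.67 ± 0.10 SE, adjusted p = 1.38e-08). HMGN5, a nucleosome-binding protein, had 109, 54.2 and 70.2 in wt rescue, 141 ± 21.2 in GAS41-KO and 472, 456 and 461 in WT (log2 change -1.59 ± 0.10 SE, adjusted p = 2.59e-08). No wt rescue library came near WT in LRP1B, RGS2 or HMGN5, and none of their 3 groups overlapped WT. With replicate 1 alone these 6 log2 changes were -1.79 for DPYSL3, -1.54 for DSC3, -1.40 for NFIB, -1.32 for LRP1B, -1.41 for RGS2 and -1.35 for HMGN5, all called.

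In the other 6, replicates 2 and 3 were far lower than replicate 1. SLC7A11, the cystine importer that feeds glutathione synthesis, had 1297, 404 and 532 normalized reads in wt rescue, 1177 ± 63.2 in GAS41-KO and 2701, 2538 and 2717 in WT. Replicate 1 was near GAS41-KO and the other 2 below it. The fall was the largest on the log2 scale (log2 change -1.78 ± 0.23 SE, adjusted p = 3.67e-05), and was -0.95 with replicate 1 alone and -2.20 without it. ROCK2, a kinase of the actin cytoskeleton, had 784, 294 and 331 in wt rescue and 1810.0, 1673 and 1772 in WT (log2 change -1.72, -1.03 with replicate 1 alone). PIK3C2A, a lipid kinase of endocytosis, had 1347, 313 and 509.9 in wt rescue and 1996, 1859 and 1908 in WT (log2 change -1.44, -0.47 with replicate 1 alone). In GAS41-KO neither passed the threshold over WT (adjusted p = 0.687 for ROCK2 and 0.888 for PIK3C2A). VPS13A, a lipid transfer protein, had 1690.2, 374 and 520.2 in wt rescue and 2189, 2069 and 2240.0 in WT. Its log2 change of -1.43 (adjusted p = 0.00143) was -0.33 with replicate 1 alone and no longer called (adjusted p = 0.148). SYNE2, which links the nucleus to actin, and the mitotic kinesin KIF14 had log2 changes of -1.41 and -1.38 (adjusted p = 0.00029 and 0.000382), against -0.54 and -0.48 with replicate 1 alone.

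**Figure D3:**
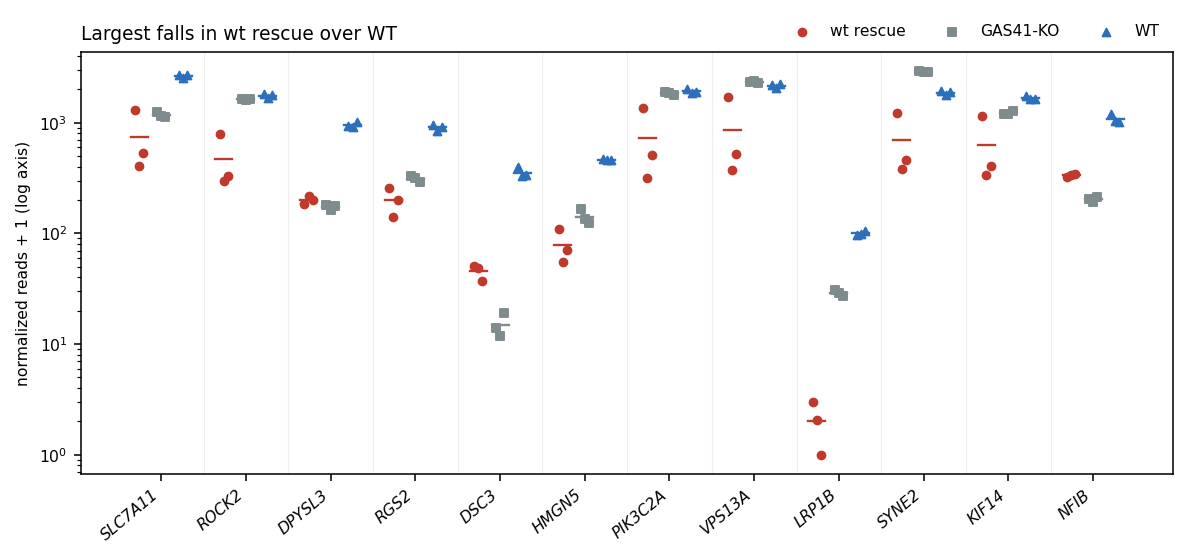
Normalized reads plus 1 (log axis) of the 12 largest falls in each library of wt rescue, GAS41-KO and WT, with a bar at each group mean. DPYSL3, DSC3 and NFIB have 3 tight wt rescue points far under WT, whereas in ROCK2, PIK3C2A, VPS13A, SYNE2 and KIF14 wt rescue replicate 1 lies well above replicates 2 and 3.

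Some genes called in both wt rescue and GAS41-KO, each over WT, lay on opposite sides of WT. Both comparisons use the same WT libraries, so their values are set side by side and no count is drawn from them. Beside YEATS4, the largest rises of this kind were LAMB3, GALNT5, F3, SEMA7A and CAV1. LAMB3, a chain of the basement membrane protein laminin, had 973, 962 and 1026 normalized reads in wt rescue, 319 ± 31 in GAS41-KO and 368, 381 and 395 in WT (2.59-fold over WT, adjusted p = 6.44e-09). F3, tissue factor of the clotting cascade, had 1614, 1855 and 1800.2 in wt rescue, 633 ± 28.8 in GAS41-KO and 971, 893 and 916 in WT (adjusted p = 3.72e-07). CAV1, the coat protein of caveolae, had 10406, 11898 and 11529 in wt rescue, 1907 ± 99.8 in GAS41-KO and 6697, 6509 and 6819 in WT (adjusted p = 1.63e-06). The 3 libraries of each group stood together in LAMB3, F3 and CAV1. GALNT5, a glycosyltransferase, and SEMA7A, a membrane-bound semaphorin, were 2.87-fold and 2.03-fold over WT (adjusted p = 2.86e-08 and 5.81e-07). On the low side, SESTD1 had 289, 201 and 223 in wt rescue, 1502 ± 32.8 in GAS41-KO and 563, 526 and 565 in WT (log2 change -0.90 ± 0.10 SE, adjusted p = 9.17e-06). NFAT5, the transcription factor of the osmotic stress response, had 3097, 1282 and 1583 in wt rescue, 7498 ± 401 in GAS41-KO and 4255, 3924 and 4228 in WT (log2 change -1.09 ± 0.21 SE, adjusted p = 0.000703), with a log2 change of -0.40 (adjusted p = 0.0663) with replicate 1 alone. GOLGB1, a Golgi matrix protein, likewise lost its call with replicate 1 alone (log2 change -1.06 with all libraries, -0.26 and adjusted p = 0.177 with replicate 1). GABBR1, a GABA receptor subunit, and ITPR2, a calcium channel of the endoplasmic reticulum, were at 40.2% and 39.2% of WT, and SYNE2 was also on this side.

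Many genes of protein synthesis and turnover were above WT in wt rescue. MYC, the transcription factor that drives many of them and a known partner of GAS41, had 6531, 7833 and 7549 normalized reads in wt rescue, 3628 ± 50.5 in GAS41-KO and 5716, 5814 and 5908 in WT. The wt rescue libraries were all above WT, and MYC rose 1.26-fold (log2 change 0.32 ± 0.08 SE, adjusted p = 0.00436). With replicate 1 alone its log2 change was 0.16 (adjusted p = 0.239), and after quantile normalization 0.11 (adjusted p = 0.207). Of 12 genes of the MYC and MAX network 3 rose and 1 fell, against 27.4% and 22.7% of all genes, and the median was 0.01 where all genes had 0.01 (with TMM factors it was -0.05). The risen members were MYC, its dimer partner MAX and the related MLX, and the nutrient-sensing MLXIPL fell to 236 ± 39 in wt rescue, against 368 ± 12.8 in WT.

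Of 49 ribosome biogenesis genes 35 rose and 0 fell, with a median log2 change of 0.35. The count was 29 with replicate 1 alone, where 8.5% of all genes rose, and 35 rises with 4 falls without it. RRP12, a factor of ribosomal subunit export, had 2597, 3069 and 2908 normalized reads in wt rescue, 1528 ± 65 in GAS41-KO and 1780.4, 1887 and 1777 in WT (1.57-fold over WT, log2 change 0.61 ± 0.07 SE, adjusted p = 1.63e-05). NIP7 and NOP2, factors of large subunit maturation, rose 1.5-fold and 1.44-fold (adjusted p = 2.25e-05 and 6.59e-05). The nucleolar phosphoprotein NOLC1 had 16599, 19889.5 and 18648 in wt rescue, 8252 ± 39.9 in GAS41-KO and 13622, 12921 and 13557 in WT (adjusted p = 8.26e-05), and DDX56, a nucleolar helicase, rose 1.46-fold. In each of these genes wt rescue was above and GAS41-KO below WT. Over WT, the same list had 1 called higher and 45 lower (median -0.48) in GAS41-KO, against 3772 and 3852 of all 14505 genes.

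How many ribosomal protein genes rose depended on the library and the scaling. Of all genes 27.4% were called higher and 22.7% lower, and after quantile normalization 24.4% and 18.7%. Mitochondrial ribosomal proteins had 59 rises and 0 falls among 73 (median 0.29), 20 rises with replicate 1 alone and 46 after quantile normalization. MRPL49 had 2562, 3016 and 2730.2 normalized reads in wt rescue, 1574 ± 15.6 in GAS41-KO and 1836, 1809 and 1693 in WT (log2 change 0.59 ± 0.07 SE, adjusted p = 1.8e-05). Cytosolic ribosomal proteins had 62 rises and 0 falls among 76 (median 0.26). Without wt rescue replicate 3 these proteins had 29 rises, against 3017 of all 14505 genes. They had, for replicate 1 alone, 6 rises, no larger a share than the 8.5% of all genes, and after quantile normalization 8 (median 0.04), a smaller share than the 24.4% of all genes. RPS13, of the small subunit, had 12023, 12527 and 14517 in wt rescue and 9114, 8752 and 8891 in WT (log2 change 0.53 ± 0.09 SE, adjusted p = 0.000223). RPL24, RPL10, RPL27A and RPSA followed, rising 1.34-fold, 1.32-fold, 1.28-fold and 1.33-fold. These genes have many processed pseudogenes that could take or give reads, so single values are uncertain.

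Proteasome subunits had 27 rises and 0 falls among 31 (median 0.35), where 27.4% and 22.7% of all genes rose and fell. After quantile normalization 16 rose, where 24.4% of all genes did, and with replicate 1 alone the median was 0.21. PSMB2, of the proteolytic core, had 5382, 6481 and 6192 normalized reads in wt rescue and 4225, 4202 and 4216 in WT (log2 change 0.49 ± 0.07 SE, adjusted p = 0.000108), and the ATPase PSMC4 rose 1.43-fold. Heat shock chaperones had 20 rises and 1 fall among 27 (median 0.30), and with replicate 1 alone a median of 0.18. After quantile normalization they had 8 rises and 2 falls, a share of rises near the 24.4% of all genes. HSPA8, the constitutive HSP70 chaperone, had 67445, 85783 and 81037 in wt rescue, 42339 ± 1634 in GAS41-KO and 52128, 50083 and 51516 in WT (1.52-fold over WT, log2 change 0.60 ± 0.07 SE, adjusted p = 2.66e-05). HSPA1B, a stress-inducible HSP70 that shares nearly all of its sequence with HSPA1A and is uncertain for that reason, rose 1.61-fold. DNAJB1, AHSA1 and CCT3, which serve HSP70, HSP90 and the chaperonin, rose 1.43-fold, 1.37-fold and 1.38-fold. Nuclear genes of oxidative phosphorylation had 32 rises and 0 falls among 60 (median 0.19), where 27.4% and 22.7% of all genes rose and fell. Without wt rescue replicate 3 they had 8 rises, a smaller share than the 3017 of all 14505 genes. Without WT replicate 2 they had 16, a share near the 3421 of all 14505 genes. After quantile normalization there were 6 rises and 1 fall, a smaller share of rises than the 24.4% of all genes. With replicate 1 alone the median was 0.08. NDUFA10, of respiratory complex I, rose 1.29-fold (adjusted p = 0.000907), and COX5A, of cytochrome c oxidase, 1.31-fold (adjusted p = 0.00092).

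**Figure D4:**
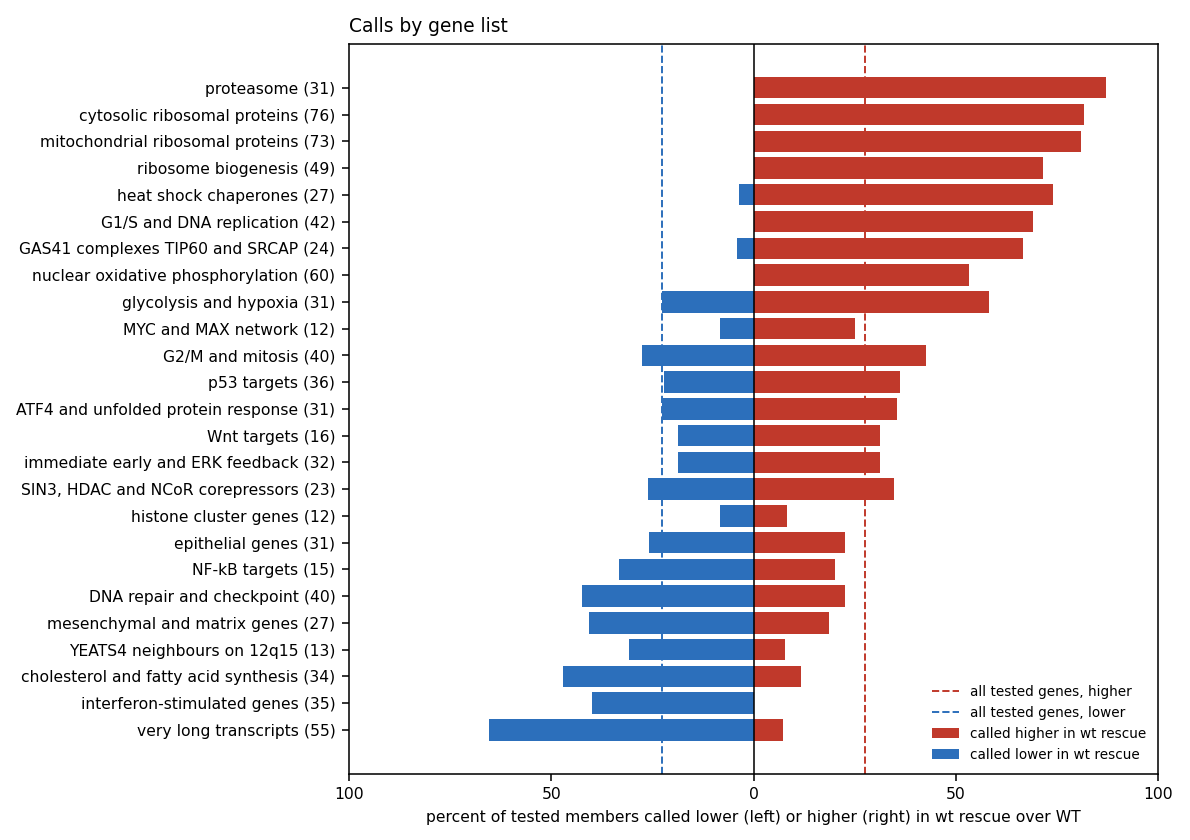
Percent of tested members called lower (left) and higher (right) in wt rescue over WT for each gene list with at least 10 tested members, given in brackets, with dashed lines at 22.7% and 27.4%, the shares over all 14505 genes. Proteasome and ribosomal protein lists reach far right, and the very long transcripts far left.

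The G1/S and DNA replication list had 29 rises and 0 falls among 42 (median 0.25), where 27.4% and 22.7% of all genes rose and fell. After quantile normalization 17 rose, where 24.4% of all genes did, and with replicate 1 alone the median was 0.17. CCNE1, the cyclin E of S phase entry, had 899, 1059.8 and 1046 normalized reads in wt rescue, 583 ± 40.3 in GAS41-KO and 696, 638 and 714 in WT (log2 change 0.47 ± 0.07 SE, adjusted p = 0.000101). UNG, which removes uracil from DNA, and CHAF1B, of the chromatin assembly factor, rose 1.44-fold and 1.4-fold, and both were below WT in GAS41-KO. SLBP, which binds histone messages, and UHRF1, which maintains DNA methylation, rose 1.39-fold and 1.36-fold. The G2/M list had 17 rises and 11 falls out of 40 (median 0.13), where 27.4% and 22.7% of all genes rose and fell. After quantile normalization it had 12 rises and 16 falls (median -0.02), where 24.4% and 18.7% of all genes did. The members with the smallest p, named next, all rose, while the lowest log2 change in the list was -0.99. PLK1, a mitotic kinase, had 3910.3, 4468 and 4184 in wt rescue, 2273 ± 109.5 in GAS41-KO and 2906, 2967 and 2964 in WT (log2 change 0.48 ± 0.07 SE, adjusted p = 0.000109), and BIRC5, KIF2C, CCNB1 and CDC20 rose 1.39-fold, 1.39-fold, 1.35-fold and 1.4-fold. Without replicate 1 the G2/M list had 19 rises and 17 falls, where 32.6% and 25.5% of all genes rose and fell. Its median was 0.11 with replicate 1 alone. The lowest log2 change in the list was -0.32 with replicate 1 alone and -1.36 without it. The depth of its largest fall thus rested mainly on the other wt rescue libraries.

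DNA repair and checkpoint genes had 9 rises and 17 falls among 40 (median -0.11), where 27.4% and 22.7% of all genes rose and fell. The falls rested on replicates 2 and 3. With replicate 1 alone the median was 0.01. Without it there were 9 rises and 20 falls (median -0.19), where 32.6% and 25.5% of all genes did. BRCA2, which serves repair by homologous recombination, had 663, 234 and 312 normalized reads in wt rescue, 490.4 ± 51.4 in GAS41-KO and 863, 788 and 889 in WT. Replicate 1 was below the WT libraries by far less than replicates 2 and 3, and the log2 change of -0.95 (adjusted p = 0.00112) was -0.29 with replicate 1 alone (adjusted p = 0.127). The helicase WRN, the nuclease MRE11A and the polymerase POLQ had log2 changes of -0.58, -0.83 and -0.85, and -0.21, -0.23 and -0.21 with replicate 1 alone, where none of them was called.

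Most subunits of the complexes that hold GAS41 were higher in wt rescue. Of 24 TIP60 and SRCAP genes, YEATS4 included, 16 rose and 1 fell (median 0.23), where 27.4% and 22.7% of all genes did. After quantile normalization 10 rose, where 24.4% of all genes did, and with replicate 1 alone the median was 0.13. The helicases RUVBL1 and RUVBL2, shared by both complexes, both rose. RUVBL1 had 4287, 5265 and 5161 normalized reads in wt rescue and 3601, 3490.4 and 3579.6 in WT (adjusted p = 0.000214). RUVBL2 had 5508, 6063 and 6187 in wt rescue and 3896, 4226 and 3981 in WT (adjusted p = 0.00012). VPS72, which handles the exchanged histone variant, rose 1.37-fold and was below WT in GAS41-KO. ACTB, whose actin is a subunit of both complexes as well as of the cytoskeleton, rose 1.38-fold (log2 change 0.46 ± 0.06 SE, adjusted p = 5.86e-05). SIN3, HDAC and NCoR corepressor genes had 8 rises and 6 falls among 23 (median 0.04, and -0.01 with TMM factors), where 27.4% and 22.7% of all genes rose and fell. HDAC2, a histone deacetylase, had 3362, 3095 and 3204 in wt rescue, 2562 ± 59.8 in GAS41-KO and 4638, 4444 and 4385 in WT. All 3 wt rescue libraries lay below WT and above GAS41-KO (log2 change -0.46 ± 0.06 SE, adjusted p = 3.93e-05). HDAC1 had 6122 ± 587 normalized reads in wt rescue and 5573 ± 124 in WT (adjusted p = 0.136). SIN3A, the scaffold of its corepressor complex, had 2607 ± 241 normalized reads in wt rescue and 2329 ± 50.8 in WT (adjusted p = 0.0654). Without replicate 1 HDAC1 and SIN3A were called higher, at log2 changes of 0.21 and 0.22 (adjusted p = 0.00299 and 0.00244). With replicate 1 alone their log2 changes were -0.03 and 0.02. BRMS1 and GPS2, a SIN3 and an NCoR subunit, rose 1.48-fold and 1.47-fold. ARID4A and BRMS1L fell to 39.1% and 67.1% of WT. The lowest log2 change in this list was -0.93 with all libraries, -1.21 without replicate 1 and -0.51 with replicate 1 alone.

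Of 31 epithelial genes 7 were called higher in wt rescue and 8 lower, shares near the 27.4% and 22.7% of all genes. Their median was 0.02 (-0.01 with TMM factors). In GAS41-KO over WT the list had 1 called higher and 27 lower (median -1.13), against 3772 and 3852 of all 14505 genes. The 5 members with the smallest p were all low, in each of the 3 wt rescue libraries. MAL2, a protein of apical transport, had 2209, 2139 and 2125 normalized reads in wt rescue, 149 ± 9.4 in GAS41-KO and 4791, 4579 and 4841 in WT (log2 change -1.08 ± 0.07 SE, adjusted p = 1.91e-08). S100A14, a calcium-binding protein of epithelia, had 801, 958 and 959 in wt rescue, 94.3 ± 1.53 in GAS41-KO and 2080.2, 2077 and 2160.3 in WT (log2 change -1.10 ± 0.08 SE, adjusted p = 6.36e-08). EPN3, an epithelial endocytic adaptor, had 132, 128 and 136 in wt rescue, 42.2 ± 2.48 in GAS41-KO and 319, 357 and 356 in WT (log2 change -0.88 ± 0.06 SE, adjusted p = 1.09e-07). MAL2, S100A14 and EPN3 lay between GAS41-KO and WT with no overlap. GRHL2, which sustains the epithelial state, had 453, 528 and 525 in wt rescue, 5.98 ± 2.66 in GAS41-KO and 710.3, 704 and 701 in WT, so it was at 71.2% of WT (log2 change -0.40 ± 0.06 SE, adjusted p = 0.000207). FXYD3, an ion pump regulator, had 8.51 ± 3.09 normalized reads in wt rescue, against 58.2 ± 5.49 in WT (adjusted p = 3.6e-06). EPCAM, an epithelial adhesion molecule, was above WT instead, with 8126, 9608 and 9302 in wt rescue, 915 ± 17 in GAS41-KO and 7876, 7187 and 7446 in WT (log2 change 0.26 ± 0.08 SE, adjusted p = 0.0105), although its log2 change was 0.11 (adjusted p = 0.399) with replicate 1 alone and 0.04 (adjusted p = 0.664) after quantile normalization. KRT8, KRT18 and KRT19 rose 1.54-fold, 1.46-fold and 1.27-fold, and CDX2, an intestinal transcription factor, had 262 ± 36.5 normalized reads in wt rescue and 235 ± 22 in WT (adjusted p = 0.307). Over the 6 tested colon epithelial markers the median log2 change was 0.30 and the highest 0.62. After quantile normalization these were 0.14 and 0.33, so the size of such rises depended on the scaling. In bulk RNA fewer cells that express a gene and less RNA per cell cannot be told apart, here and in every other result.

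Among mesenchymal and matrix genes 5 rose and 11 fell of 27 (median -0.08), where 27.4% and 22.7% of all genes did. SPARC, a secreted matrix glycoprotein, had 11, 6.26 and 10.3 normalized reads in wt rescue, 572 ± 28.1 in GAS41-KO and 75.4, 72.7 and 67.4 in WT. It was below WT in each wt rescue library and far above it in GAS41-KO (log2 change -0.85 ± 0.06 SE, adjusted p = 5.8e-08). LAMB1, another laminin chain, had 933, 995 and 979.6 in wt rescue, 4710.1 ± 38.4 in GAS41-KO and 1468, 1460.0 and 1495 in WT (log2 change -0.54 ± 0.05 SE, adjusted p = 4.35e-06). LAMB3 and THBS1, described above, were leading rises. COL1A1, of the fibroblast markers, fell to 167 ± 11.1 in wt rescue, against 285 ± 19.6 in WT (adjusted p = 0.000174).

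Interferon-stimulated genes, high in GAS41-KO, were not above WT in wt rescue by the deposited scale. Of 35 tested 0 rose and 14 fell (median -0.12), where 27.4% and 22.7% of all genes did. The median was -0.40 on a plain log2 scale, which does not compress low levels. GAS41-KO had 34 called higher and 0 lower (median 1.83) over the same WT libraries, against 3772 and 3852 of all 14505 genes. IFI6, an interferon-induced mitochondrial protein, had 78.7, 98 and 121 normalized reads in wt rescue, 5800.0 ± 273 in GAS41-KO and 86.9, 117 and 90.1 in WT, and the wt rescue and WT libraries overlapped (log2 change 0.01 ± 0.10 SE, adjusted p = 0.968). BST2, which tethers budding viruses, had 7.97, 8.34 and 9.29 in wt rescue, 330.0 ± 15.4 in GAS41-KO and 95.5, 85 and 65.5 in WT, so wt rescue averaged 10.4% of WT (log2 change -0.94 ± 0.06 SE, adjusted p = 4.18e-08). IFIH1, the sensor of long double-stranded RNA, had 108, 97 and 105 in wt rescue, 1008 ± 35.9 in GAS41-KO and 169, 159.6 and 161 in WT (log2 change -0.36 ± 0.05 SE, adjusted p = 0.000142). STAT2, which carries the interferon signal, and SAMD9, an antiviral factor, were at 80.3% and 50.01% of WT (adjusted p = 0.00189 and 0.00108). CMPK2, a mitochondrial nucleotide kinase, had few reads, with 12, 6.26 and 14.5 in wt rescue and 26.7, 26.4 and 20.9 in WT (adjusted p = 0.00336). After quantile normalization 2 members were called higher and 7 lower, where 24.4% and 18.7% of all genes were. The share called lower was then near that of all genes. With replicate 1 alone the median of the list was -0.08. RGS5, a G protein regulator, had 87.6, 57.4 and 66.1 in wt rescue, 9533 ± 528 in GAS41-KO and 94.5, 80.3 and 95.8 in WT (log2 change -0.17 ± 0.08 SE, adjusted p = 0.0789). Without replicate 1 its log2 change was -0.24 and called (adjusted p = 0.00611), and with replicate 1 alone it was -0.02.

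Among p53 targets 13 rose and 8 fell of 36 (median 0.11), where 27.4% and 22.7% of all genes did. CDKN1A, the gene of p21, a brake on cyclin-dependent kinases, had 4512, 5064 and 4978 normalized reads in wt rescue, 5019.8 ± 87.9 in GAS41-KO and 3644, 3711 and 3804 in WT. It stood 1.3-fold over WT in wt rescue with no overlap (log2 change 0.37 ± 0.07 SE, adjusted p = 0.000588), a level close to that of GAS41-KO. BAX, a trigger of mitochondrial cell death, had 908, 1075 and 1008 in wt rescue, 1007 ± 26.7 in GAS41-KO and 581, 629 and 585 in WT (log2 change 0.62 ± 0.08 SE, adjusted p = 4.73e-05). AEN and TRIAP1, a nuclease and an apoptosis inhibitor, each rose 1.52-fold. APAF1, the scaffold of the apoptosome, fell to 59.7% of WT (log2 change -0.55 ± 0.08 SE, adjusted p = 6.99e-05), with 951 ± 29.8 in GAS41-KO against 501 ± 10.9 in WT. MDM2, the ubiquitin ligase of p53, had 3115 ± 189 normalized reads in wt rescue and 3299 ± 180.1 in WT (adjusted p = 0.52), with overlapping groups.

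More lipid synthesis genes were called lower than higher in wt rescue. Of 34 cholesterol and fatty acid genes 4 rose and 16 fell (median -0.15), and with replicate 1 alone 0 and 14 (median -0.20), where 7.55% of all genes were called lower. Without replicate 1 there were 7 rises and 13 falls (median -0.11), where 32.6% and 25.5% of all genes rose and fell. SCD, which makes monounsaturated fatty acids, had 21517, 27035 and 25369 normalized reads in wt rescue, 15611 ± 348 in GAS41-KO and 38665, 36463 and 37891 in WT (log2 change -0.62 ± 0.07 SE, adjusted p = 1.67e-05). ELOVL6, a fatty acid elongase, had 927, 826 and 831 in wt rescue, 511 ± 29.1 in GAS41-KO and 1639, 1584 and 1587 in WT (log2 change -0.80 ± 0.06 SE, adjusted p = 2.36e-07). Both lay between GAS41-KO and WT in every wt rescue library. ACSS2, an acetyl-CoA synthetase, was at 67.4% of WT, and STARD4, a sterol carrier, had 551, 264 and 321 in wt rescue and 1047, 907 and 960.1 in WT (log2 change -1.14 ± 0.14 SE, adjusted p = 2.45e-05).

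In the ATF4 and unfolded protein list 11 rose and 7 fell of 31 (median 0.09, and -0.06 after quantile normalization), where 27.4% and 22.7% of all genes did. DDIT4, a stress-induced brake on mTOR, had 1293, 1605 and 1413 normalized reads in wt rescue, 1969 ± 51.8 in GAS41-KO and 3048, 3030.5 and 3166 in WT (log2 change -1.03 ± 0.07 SE, adjusted p = 1.01e-07). CHAC1, which degrades glutathione, had 170.3, 202 and 183 in wt rescue, 153 ± 19.3 in GAS41-KO and 336, 362 and 359 in WT (log2 change -0.62 ± 0.07 SE, adjusted p = 8.6e-06). DDIT4, CHAC1 and SLC7A11 were below WT in all wt rescue libraries, while SHMT2, of mitochondrial serine metabolism, and HYOU1, an endoplasmic reticulum chaperone, rose 1.33-fold and 1.27-fold. Glycolysis and hypoxia genes had 18 rises and 7 falls among 31 (median 0.22), where 27.4% and 22.7% of all genes rose and fell. After quantile normalization they had 10 rises and 6 falls (median 0.01), where 24.4% and 18.7% of all genes did. With replicate 1 alone the median was 0.09. SLC2A1, the main glucose transporter, had 1478, 1702 and 1704 in wt rescue, 4879 ± 127 in GAS41-KO and 1177, 1237 and 1185 in WT (log2 change 0.40 ± 0.07 SE, adjusted p = 0.000511). Its relative SLC2A3 had 78.7, 80.3 and 92.9 in wt rescue, 114 ± 5.11 in GAS41-KO and 24.8, 28.3 and 37 in WT, a 2.79-fold rise (adjusted p = 1.11e-05). PFKP, a glycolytic kinase, rose 1.37-fold, and PDK1, which inhibits pyruvate dehydrogenase, fell to 67.8% of WT. BNIP3L, a mitophagy receptor, fell to 58.4% of WT (adjusted p = 9.64e-05).

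Immediate early genes and feedback genes of the ERK pathway had 10 rises and 6 falls among 32 (median 0.05), shares near the 27.4% and 22.7% of all genes. The transcription factor JUN had 459, 575 and 514 normalized reads in wt rescue, 728 ± 15.4 in GAS41-KO and 259.7, 271 and 227 in WT (log2 change 0.75 ± 0.08 SE, adjusted p = 4.52e-06), and its partner FOSL2 rose 1.79-fold. EGR1, an early growth response factor, had 607, 785 and 723 in wt rescue, 1854 ± 98.6 in GAS41-KO and 1266, 1261 and 1218 in WT (log2 change -0.72 ± 0.07 SE, adjusted p = 4.84e-06). EGR1 was thus below WT in wt rescue and above it in GAS41-KO, as was SPRY4, a feedback inhibitor at 62.5% of WT in wt rescue. DUSP5, an ERK phosphatase, rose 1.71-fold over WT (log2 change 0.72 ± 0.07 SE, adjusted p = 2.35e-06). Wnt targets had 5 rises, BMP4 and MYC among them, and 3 falls among 16 (median 0.05), also near the shares of all genes. CCND1, which encodes cyclin D, had 18052, 21079 and 20249 in wt rescue, 13678 ± 288 in GAS41-KO and 13261, 13094 and 13123 in WT (log2 change 0.58 ± 0.06 SE, adjusted p = 7.27e-06). AXIN2, a feedback inhibitor of Wnt signalling, had 207, 238 and 249 in wt rescue, 956 ± 34.2 in GAS41-KO and 178, 187 and 173 in WT (adjusted p = 0.0048), and RNF43, which removes Wnt receptors, was at 56.6% of WT (adjusted p = 6.11e-07). NF-kB targets had 3 rises and 5 falls among 15 (median -0.14), where 27.4% and 22.7% of all genes rose and fell, with the subunit RELA 1.27-fold over WT (adjusted p = 0.00148). TRAF1, a signalling adaptor, had 7.97, 7.3 and 13.4 in wt rescue, 12.9 ± 1.98 in GAS41-KO and 19.1, 24.6 and 20.9 in WT (adjusted p = 0.00296), and the cytokines LIF and CXCL8 were at 84.9% and 46.4% of WT (adjusted p = 0.00382 and 0.0057).

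The list of very long transcripts had the median furthest from 0 among the lists with at least 10 tested members. In it wt rescue replicate 1 differed from replicates 2 and 3. Of 55 tested 4 rose and 36 fell (median -0.45), where 27.4% and 22.7% of all genes did. The median difference from the WT mean was -0.11, -0.65 and -0.60 log2 in wt rescue replicates 1, 2 and 3, while the WT libraries lay at 0.05, -0.05 and 0.00. The GAS41-KO libraries lay at 0.10, 0.14 and 0.11, and the mut rescue libraries at 0.07, -0.04 and 0.18. Here wt rescue replicates 2 and 3 thus lay furthest from all other libraries. Without replicate 1, 10 rose and 37 fell (median -0.68), where 32.6% and 25.5% of all genes did. KIAA1109, a lipid transport protein of great length, had 1005, 359 and 421 normalized reads in wt rescue, 1744 ± 26.2 in GAS41-KO and 1519, 1421 and 1453 in WT (log2 change -1.23 ± 0.20 SE, adjusted p = 0.000255). VPS13B, a relative of VPS13A, had 1146, 572 and 665 in wt rescue and 1626, 1464 and 1491 in WT (log2 change -0.88 ± 0.15 SE, adjusted p = 0.000268). In both genes replicate 1 was below WT and above replicates 2 and 3. FAT1, a giant cadherin, was an exception with 21231, 20186 and 20332 in wt rescue, 21318 ± 449.7 in GAS41-KO and 34693, 31889 and 33219.9 in WT, equally low in all 3 libraries (log2 change -0.69 ± 0.06 SE, adjusted p = 1.61e-06). NBEA, a trafficking protein, had 96.6, 67.8 and 47.5 in wt rescue, 304 ± 10.2 in GAS41-KO and 193, 142 and 164 in WT.

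Replicate 1 stood apart from replicates 2 and 3 in the medians of other lists too. Against the WT mean, replicates 1, 2 and 3 had medians of 0.15, 0.30 and 0.36 log2 for cytosolic ribosomal proteins, 0.08, 0.22 and 0.28 for oxidative phosphorylation and 0.01, -0.20 and -0.18 for DNA repair. The medians were 0.25, 0.41 and 0.38 for ribosome biogenesis and -0.20, -0.09 and -0.12 for cholesterol and fatty acid genes, and 0.00, 0.03 and 0.02 over all genes. Over the 7253 tested genes of high mean level, a class that holds all 76 tested cytosolic ribosomal protein genes, they were 0.07, 0.17 and 0.16, so replicate 1 lay closer to WT there too. In the first 4 of these lists replicate 1 lay closer to WT than replicates 2 and 3 did, and in the cholesterol list it lay further away. The part of transcript length in these gaps was not tested.

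**Figure D5:**
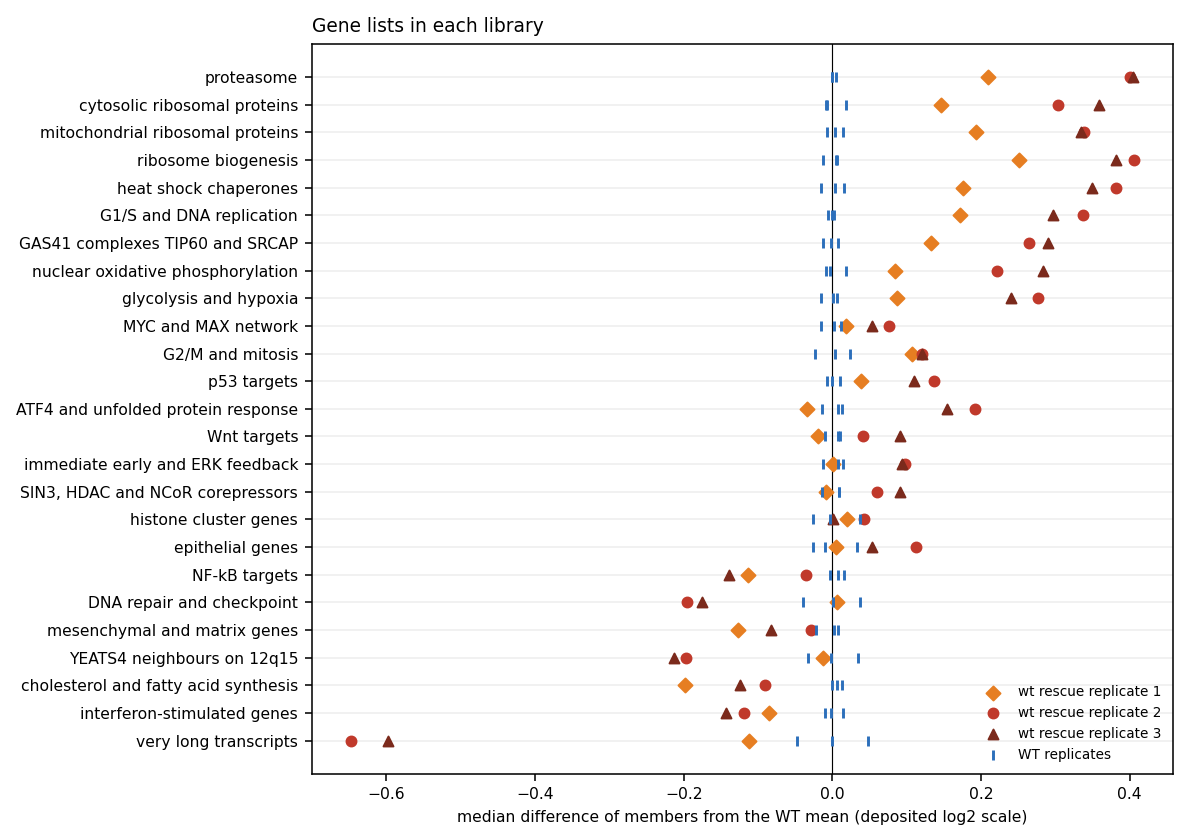
Median difference of each gene list's tested members from the WT mean on the deposited log2 scale, for wt rescue replicates 1, 2 and 3 and the 3 WT libraries. For proteasome genes replicates 1, 2 and 3 lie at 0.21, 0.40 and 0.40, and replicate 1 is at -0.11 for very long transcripts, where replicates 2 and 3 are at -0.65 and -0.60.

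Of 13 tested neighbours of YEATS4 on the long arm of chromosome 12, 1 rose and 4 fell (median -0.12), where 27.4% and 22.7% of all genes did, and the riser was CCT2, a chaperonin subunit with 12769 ± 1294 normalized reads in wt rescue and 10423 ± 251 in WT (adjusted p = 0.00417). RAB3IP, which activates a trafficking GTPase, fell to 66.2% of WT and had a log2 change of -0.29 with replicate 1 alone (adjusted p = 0.0515). NUP107, a nuclear pore subunit, had 1645, 1096 and 1153 normalized reads in wt rescue and 1717, 1632 and 1638 in WT, with replicate 1 inside the WT range. Histone cluster genes had 1 rise and 1 fall among 12 tested (median 0.02), and most histone messages end in a stem loop that poly-A selection misses. The fall was that of H1F0, a linker histone with a poly-A tail, at 7317 ± 746 normalized reads in wt rescue and 11987 ± 298 in WT (log2 change -0.71 ± 0.07 SE, adjusted p = 4.52e-06).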

How the data were processed

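Per the submitters' processing notes, the tools were TopHat2 2.1.0, Trimmomatic 0.36, HTSeq, CASAVA 1.4, DESeq2 and Bowtie 1.0.1, and hg19 and mm9 were the builds. The notes give no role or order. The gene annotation and the strand setting are not given in the sources used here, so overlapping and antisense genes cannot be told apart.

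The table is named for counts, but the authors deposited log2 values on a variance-stabilized scale, as its values show. Inverting the transformation gave whole reads to within 0.01 for 100% of values in all 12 libraries, and the size factors equal median-ratio factors. Names in 18140 of 18797 rows matched RefSeq symbols. A gene was tested if 3 or more libraries held 10 or more recovered reads of it. The deposited log2 values of the 12 libraries (4 groups of 3) were fitted in 1 model with limma 3.58.1 under R 4.3.3, whose prior variance followed the mean level. Adjusted p-values are Benjamini-Hochberg over all tested genes, called under 0.05. A single gene in a 3 against 3 exact permutation test cannot go below 0.1. Python 3.11.15, pandas 2.3.3 and matplotlib 3.10.9 served for summaries and plots.

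Genes named are 14 given whatever their values, the 12 largest rises and falls (called, at least 50 normalized reads on average, no overlap, protein-coding), the 6 largest of each sign on the GAS41-KO side of WT and on the other side, and up to 5 members with the smallest p from each of 30 lists. A few genes that these rules name are not reported here. The members and lists were chosen with earlier results of these data known, so lists have counts and medians and no test. The fit was checked on simulated reads with planted changes. Their spread was taken from WT and GAS41-KO and no simulated library stood apart, so the check does not cover a library like wt rescue replicate 1. Alternatives were no read filter, a minimum of 100 reads, the replicate number as a block, the 6 libraries alone, voom with the deposited or TMM factors, pseudocounts of 1 and 10, quantile normalization, library weights, a test against a 1.2-fold change, and leaving out libraries. The doxorubicin libraries and the 26 ChIP and input samples were not used here.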

Additional observations from a re-analysis of the deposited data

How the results depend on the processing

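The count of 7267 genes called in wt rescue over WT (3978 higher, 3289 lower) ran from 5585 to 8428 when 1 library of either group was left out, with 3017 to 4732 higher and 2568 to 3696 lower. It was 697 (266 higher, 431 lower) in a test against a 1.2-fold change, and 2328 (1233 higher, 1095 lower) with wt rescue replicate 1 as the only rescue library. Library weights, which gave replicate 1 a weight of 0.157 and replicate 3 one of 4.22, called 10355. Genes higher by 1 log2 or more numbered 14, and 91 with voom and the deposited size factors, 77 with voom and TMM factors, 86 with a pseudocount of 1 and 45 with one of 10. Genes lower by that much numbered 79, and 731, 840, 713 and 370 on those scales. By construction voom compresses low levels least of these and a pseudocount of 10 more than one of 1. Large falls were 181 with library weights, 19 with replicate 1 alone and 37 to 241 with 1 library left out.

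With the replicate number as a block 7586 genes were called. Same-numbered wt rescue and WT libraries had deviation correlations of 0.19, 0.21 and -0.01. For wt rescue and mut rescue these were 0.21, 0.48 and -0.39, and for WT and mut rescue 0.22, 0.44 and 0.03. Pairs with GAS41-KO ran from -0.08 to 0.23. Whether same-numbered libraries share a batch was not tested. None of the 168 named genes tested, of which 154 were called, changed direction while called in the 18 alternatives. With replicate 1 alone 30 of them lost their call, with the 1.2-fold test 70 and with quantile normalization 8. Without wt rescue replicate 1, 7 named genes gained a call and 0 lost one. The planned removal of a length trend and the length classes from a reference were not run, and the list of very long transcripts stood in. Levels under about 40 normalized reads are compressed, which limits small changes there.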
